A study of Mus musculus with 6 samples.

Results

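H2-K1 (Entrez gene 14972) and H2-D1 (Entrez gene 14964) are the classical major histocompatibility complex (MHC) class I heavy chain genes of the mouse that the deposited senescence table lists. They were taken from it by symbol, and are 2 of its 88 genes. Messenger RNA was measured by sequencing in 3 young and 3 aged samples labelled as mouse brain tissue and as neuroblast, the immature migrating neuron of the brain. The sources used here do not give the ages, the strain or whether cells were sorted. All 6 samples carry the same treatment note, which speaks of tamoxifen injection and of tdTomato-marked NK cells in several organs, and which does not say whether the sequenced RNA came from injected mice. The labels do not state that the samples came from separate animals, so p-values measure only how these samples scatter, and that scatter may be technical.

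A class I heavy chain pairs with beta-2-microglobulin and carries a peptide from inside the cell to the surface, where CD8 T cells read it. NK cells sense the loss of classical class I molecules through inhibitory receptors. In the brain, class I messenger RNA is made by endothelial cells, microglia and, at lower levels, neurons, and it rises with interferon signalling. In bulk RNA, fewer cells of a type and less RNA per cell cannot be told apart.

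The promoters of both genes are shown first, since the members share their best known control elements. Whether these elements bear on the signal in these samples was not tested. The sequences come from the RefSeq promoter table for GRCm38.p6; the sources used here do not give the build behind the deposited values. Each is the 250 bases before an annotated transcription start, 5′ to 3′ along the gene, at chr17:34000348-34000597 on the minus strand for H2-K1 and at chr17:35262844-35263093 on the plus strand for H2-D1. For H2-K1, which has 2 windows in the table, the one that lies farther upstream is shown. Capitals mark 2 motifs, a kB motif (GGGNNTTCC), the kind of site that NF-kB binds, and an IRF motif (AANNGAAA, here on the opposite strand), the core of the sites that interferon regulatory factors bind. In class I promoters they are known as parts of enhancer A and of the interferon-stimulated response element.
H2-K1: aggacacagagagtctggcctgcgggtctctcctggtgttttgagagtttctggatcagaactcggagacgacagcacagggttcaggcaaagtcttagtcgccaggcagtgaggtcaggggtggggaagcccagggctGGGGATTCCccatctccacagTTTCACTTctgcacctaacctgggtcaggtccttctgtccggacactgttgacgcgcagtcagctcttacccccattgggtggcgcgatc
H2-D1: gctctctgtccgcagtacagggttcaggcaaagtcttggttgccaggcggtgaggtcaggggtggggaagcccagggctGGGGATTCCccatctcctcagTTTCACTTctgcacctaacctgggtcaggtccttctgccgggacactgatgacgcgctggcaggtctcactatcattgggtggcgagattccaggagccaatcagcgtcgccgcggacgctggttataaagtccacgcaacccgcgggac

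Over the whole windows, which also hold the 50 bases after the start, 211 of 239 aligned bases (88.3%) were identical between H2-K1 and H2-D1. The motifs were searched on both strands, and the matches in the windows of the members do not overlap each other. Of 32851 promoter windows of the same length in the table, 1912 (5.82%) held the kB motif, 7857 (23.9%) the IRF motif and 441 (1.34%) both. Both members also hold the CRE core TGACG (20.8% of all windows), the CCAAT box (37.4%) and the TATA box TATAAA (13.6%). Their places relative to the start differed, but their order was the same and their spacing nearly so. H2-D1 has the TATA box at −26 and CCAAT boxes at −76 and −53. H2-K1 has the TATA box at 36, after the start and so not in the printed sequence, and CCAAT boxes at −16 and 9. The CRE core lies at −101 in H2-D1 and −41 in H2-K1, and the kB motif at −171 and −111. The places in H2-K1 depend on which annotated start is used, here the one farther upstream. A match is a description of the letters in a window and says nothing about binding in these samples.

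Of the 22 other class I genes in the deposited table, 16 had a promoter window, and 10 of these held the IRF motif, 4 the kB motif and 4 both. The 46 bases that hold both motifs in the members and in those 4 genes are set out for comparison, with the motifs in capitals.
H2-K1: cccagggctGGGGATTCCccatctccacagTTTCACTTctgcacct
H2-D1: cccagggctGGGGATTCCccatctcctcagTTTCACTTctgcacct
H2-Q6: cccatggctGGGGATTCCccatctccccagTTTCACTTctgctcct
H2-Q7: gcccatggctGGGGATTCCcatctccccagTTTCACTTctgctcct
H2-M2: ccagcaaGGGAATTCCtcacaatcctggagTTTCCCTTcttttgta
H2-Q4: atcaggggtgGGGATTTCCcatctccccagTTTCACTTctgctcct

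Counted from 1 at the 5′ end of the stretch, H2-D1 differed from H2-K1 by 1 substitution, A27T. H2-Q6 differed from H2-K1 by 3, which were G5T, A27C and A43T. H2-M2, whose signal was at most 0.33 in any library, has the motifs in an otherwise unlike stretch.

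The messenger RNAs are also alike, which bears on how reads could be assigned. In the GENCODE M21 annotation the longest coding transcript of H2-K1 has 8 exons and 1619 bases, and that of H2-D1 has 8 exons and 2102 bases. Their coding sequences were identical at 984 of 1077 aligned bases (91.4%). The longest run without a difference spans 91 bases, at positions 738 to 828 of the H2-K1 coding sequence and 747 to 837 of that of H2-D1, and is shown because a shorter read inside it fits either gene.
H2-K1 and H2-D1: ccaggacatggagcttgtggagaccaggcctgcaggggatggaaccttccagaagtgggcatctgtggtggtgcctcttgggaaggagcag

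Of all 50-base stretches of the H2-K1 transcript, 8.79% also occurred in a transcript of another gene, and 6.94% in one of H2-D1. For H2-D1 the share was 14.3%, with 5.31% shared with H2-K1 and 7.40% with H2-Q1. With 100-base stretches the share was 0% for H2-K1 and 4.64% for H2-D1, and neither gene shared one with the other. The sources used here do not give the read length or the handling of reads that fit several genes, so the split of the signal between these genes is uncertain to an extent that was not tested.

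The comparison of aged with young brain asked whether class I heavy chain RNA differed with age. H2-K1 had a signal, in the authors' expression unit, which is not named, of 145 in young replicate 1, 172 in young replicate 2 and 162 in young replicate 3. Its signal was 129, 268 and 252 in aged replicates 1, 2 and 3. Aged replicates 2 and 3 lay above all young samples and aged replicate 1 lay below all of them (both together in 31.8% of the 66 tested genes, and aged replicate 1 below all young samples in 39.4%), so the groups overlapped. The aged mean was 216 ± 75.9 and the young mean 160 ± 14.0 (SD, n = 3 each).

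H2-D1 had a signal of 199, 271 and 242 in young replicates 1, 2 and 3. Its signal was 113, 346 and 352 in aged replicates 1, 2 and 3. The order of the libraries was that of H2-K1 except between aged replicates 2 and 3, with aged replicate 1 lowest, then young replicates 1, 3 and 2, and aged replicates 2 and 3 highest. The aged mean was 270.3 ± 136 and the young mean 237 ± 36.2 (SD, n = 3 each). As a share of the group mean, the aged and young SD of H2-D1 were 50.3% and 15.3%, and those of H2-K1 were 35.1% and 8.75%.

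**Figure D1:**
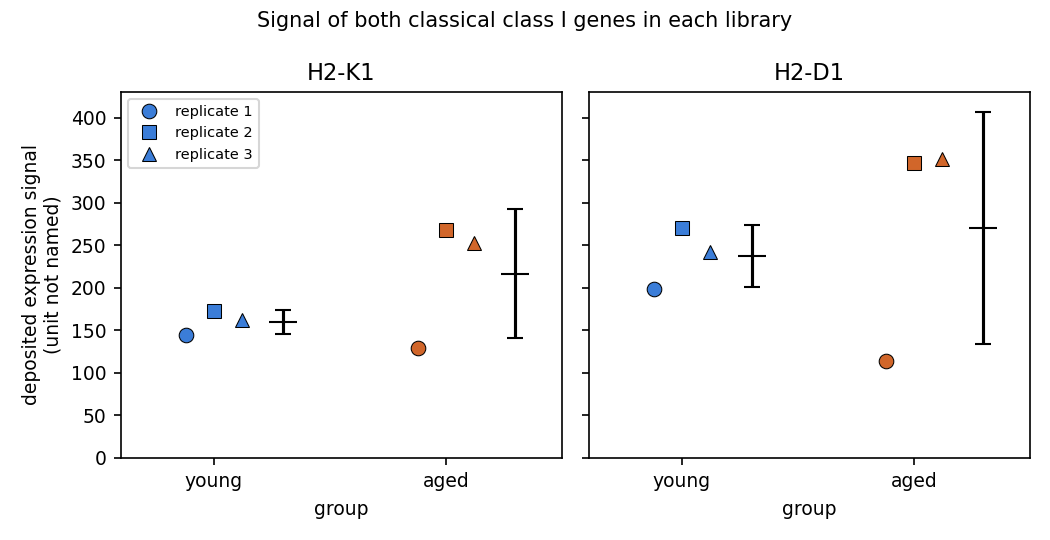
Deposited expression signal (vertical axis, unit not named) of H2-K1 and H2-D1 in the 3 young and 3 aged libraries, with one symbol per replicate number and the group mean with its SD as the black bar. In both genes aged replicates 2 and 3 lie above every young library, at 252 to 268 for H2-K1 and 346 to 352 for H2-D1, and aged replicate 1 lies below every young library, at 129 and 113.

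Neither member passed the test. With limma on log2(signal + 1) of the 66 genes whose mean signal reached 1, the log2 change of H2-K1 from young to aged was 0.37 (SE 0.411, 95% interval −0.60 to 1.33, adjusted p = 0.994, higher in 2 of 3 aged samples). That of H2-D1 was 0.03 (SE 0.546, 95% interval −1.26 to 1.31, adjusted p = 0.994, higher in 2 of 3 aged samples). Both intervals reach from a fall to more than a doubling. Of all 66 genes 0 passed a 5% false discovery rate (0%), 3 had an unadjusted p under 0.05, and neither member was among these. The exact two-sided permutation p on the log2 scale was 0.4 for H2-K1 and 1 for H2-D1, where 3 against 3 samples cannot go below 0.1.

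The scaling of the libraries moved both values. The library medians of the tested genes were higher in the aged than in the young group by 0.21 on the log2 scale. With the medians set equal, the log2 change was 0.16 (SE 0.382) for H2-K1 and −0.18 (SE 0.524) for H2-D1, so that the sign of H2-D1 turned. H2-K1 and H2-D1 together made up 14.8%, 22.4% and 21.2% of the summed signal of the 88 genes in the young libraries in the order of their numbers and 12.8%, 20.5% and 20.5% in the aged ones. On that scale, which mixes genes of unequal length, aged replicates 2 and 3 lay below young replicates 2 and 3, and the libraries numbered 1 were the lowest of each group. The sum includes Igfbp2, whose signal exceeded that of either member in every library. It was 733, 329 and 353 in young replicates 1, 2 and 3 and 170, 776 and 814 in the aged ones. The order of the shares thus depends on Igfbp2 as well as on the members, and shares without it were not tested.

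In the authors' deposited table, H2-K1 has a log2 ratio of aged to young of 0.49 with a q-value of 1.46e-193, and H2-D1 one of 0.22 with a q-value of 3.82e-56. By the authors' deposited table, 54 of the 85 genes with a q-value were under 0.05 (63.5%). The log2 ratio of the group means of the deposited signal was 0.44 for H2-K1 and 0.19 for H2-D1. The sources used here do not give the authors' test. No gene in the table has a lower aged than young mean, so a positive ratio is a property of how the table was filled and is no evidence of direction for the members.

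The result for both genes depended on aged replicate 1. That library lay at 0.809 times the young mean for H2-K1 and at 0.478 times for H2-D1, and at 0.497 and 0.325 times the mean of aged replicates 2 and 3. Over the 66 tested genes its log2 signal correlated with that of aged replicates 2 and 3 at r = 0.737 and 0.723, while those of aged replicates 2 and 3 correlated at 0.992 with each other (Pearson's r over genes, which are no independent replicates). The summed signal of the 88 genes ran from 1902 to 2328 in the young samples, was 1900 in aged replicate 1, and was 2992 and 2943 in aged replicates 2 and 3. The sequencing depth is unknown.

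Without aged replicate 1, both members passed the 5% threshold. H2-K1 was then higher by 0.70 on the log2 scale (SE 0.130, adjusted p = 0.0114 with limma, and 0.0114 to 0.999 over all alternatives), in 2 of 2 aged samples. H2-D1 was higher by 0.57 (SE 0.160, adjusted p = 0.0454 with limma, and 0.0454 to 0.999 over all alternatives), in 2 of 2 aged samples. In that fit 15 of 66 genes passed (22.7%), 14 of them as higher in the aged samples (21.2%). Where aged replicate 1 lies below the young mean, as in both members, a table filled with genes of higher aged mean requires the mean of the other 2 aged libraries to lie above it, so the direction of these calls is not independent of the table.

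Both calls were lost when the libraries were also rescaled. With aged replicate 1 left out and the library medians set equal, an alternative chosen after seeing the data, H2-K1 was higher by 0.47 (SE 0.138, limma adjusted p = 0.0676) and H2-D1 by 0.33 (SE 0.171, limma adjusted p = 0.259). The split of the calls over all genes went from 14 higher and 1 lower to 5 higher (7.58%) of 9 (13.6% of 66). With aged replicate 1 left out and each library's trend on GC content and transcript length removed, the changes were 0.40 (SE 0.104, limma adjusted p = 0.0557) for H2-K1 and 0.34 (SE 0.130, limma adjusted p = 0.122) for H2-D1, and 6 of 62 genes passed (9.68%), 5 of them as higher (8.06%). The GC content of the longest coding transcript was 56.3% for H2-K1 and 55.9% for H2-D1, against a median of 51.6% over the tested genes, whose median length was 2448.5 bases. With the same trends removed and aged replicate 1 kept, H2-K1 changed by 0.32 (SE 0.164, limma adjusted p = 0.775). H2-D1 then changed by 0.014 (SE 0.324, limma adjusted p = 0.992), and 0 of 62 genes passed. Without that removal the SEs were 0.411 for H2-K1 and 0.546 for H2-D1. The part of GC content, length or RNA quality in the low values of aged replicate 1 was not tested.

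**Figure D2:**
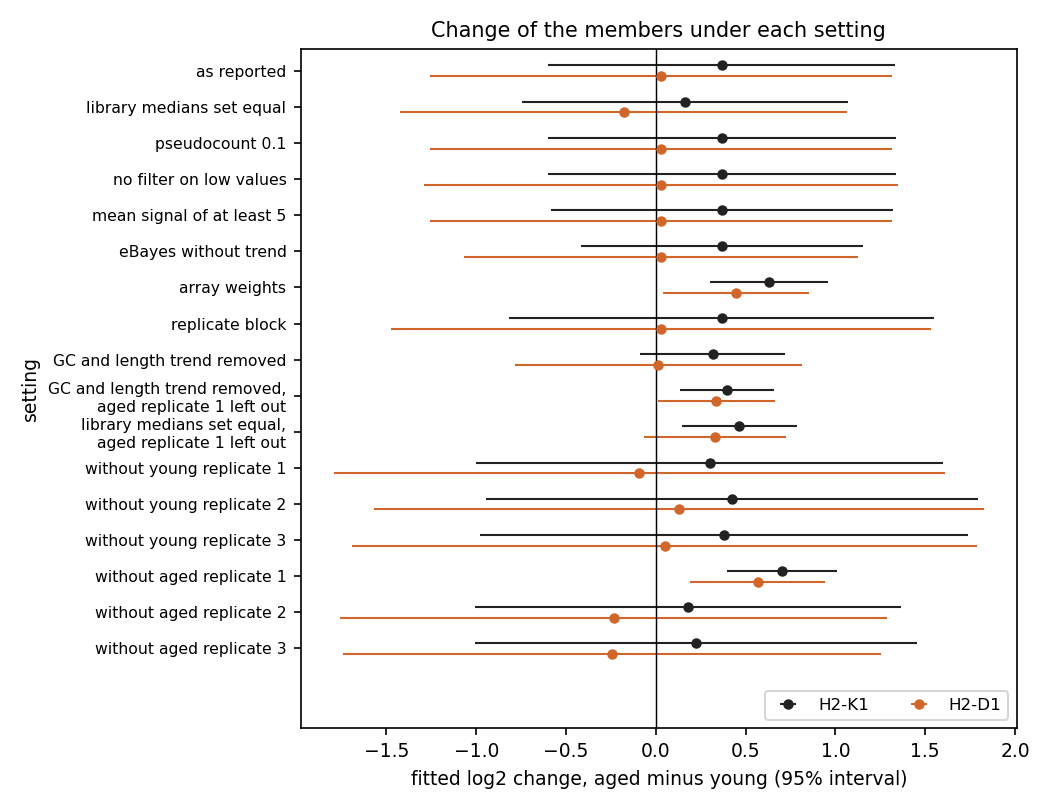
Fitted log2 change from young to aged (horizontal axis, with the 95% interval of limma) of H2-K1 in black and H2-D1 in orange under each setting (vertical axis). The points of H2-K1 lie above 0 throughout, from 0.16 to 0.70, while those of H2-D1 lie on both sides of 0, from −0.25 to 0.57.

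The ratio of the members within a library does not depend on how the library was scaled. H2-D1 over H2-K1 was 1.37, 1.57 and 1.49 in the young libraries 1, 2 and 3. It was 0.877, 1.29 and 1.40 in the aged libraries 1, 2 and 3. The young mean was 1.48 ± 0.0991 and the aged mean 1.19 ± 0.274 (SD, n = 3 each). The libraries numbered 1 had the lowest ratio of their group, and aged replicate 3 lay above young replicate 1, so the groups overlapped. The difference of the log2 ratios from young to aged was −0.34 (exact two-sided permutation p = 0.2, smallest possible 0.1), lower than the young mean in 3 of 3 aged samples. Without aged replicate 1 it was −0.14 (exact permutation p = 0.3).

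**Figure D3:**
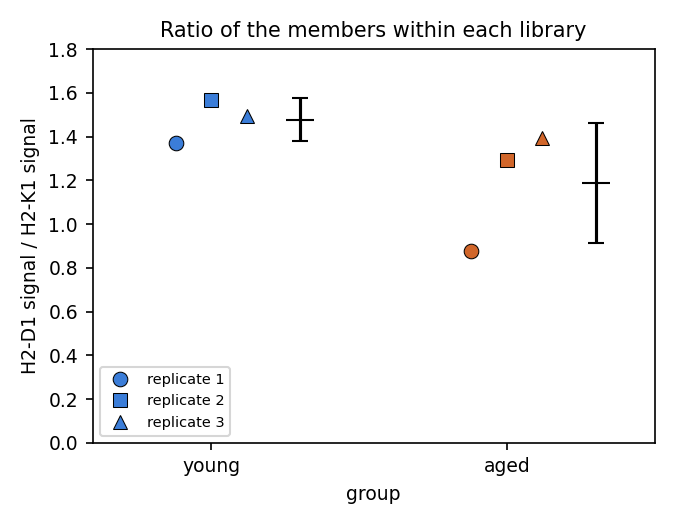
H2-D1 signal divided by H2-K1 signal (vertical axis) in each young and aged library, with one symbol per replicate number and the group mean with its SD as the black bar. Aged replicate 1 lies lowest at 0.877, and the other 5 libraries lie between 1.29 and 1.57.

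The other genes of the class I pathway in the table numbered 22, of which 11 had a mean signal high enough to be tested. They are non-classical class I genes of the H2-Q, H2-T and H2-M regions and predicted genes, and 0 of the 11 passed over all genes, in either direction, with 3 (H2-Q9, Gm8909 and H2-Q6) at an unadjusted limma p under 0.05. Their median log2 change was 0.30, against 0.12 over all 66 tested genes. Without aged replicate 1, 7 of the 11 passed as higher and 0 as lower, with a median of 0.61 against 0.20 over all tested genes, of which 21.2% were called higher. Those 7 were H2-Q4, H2-Q6, H2-Q7, H2-Q8, H2-Q9, H2-T23 and Gm8909. When the library medians were also set equal, 3 of the 11 passed as higher (H2-Q7, H2-Q9 and Gm8909), against 7.58% of all tested genes. With the trends on GC content and transcript length removed instead, 1 of the 8 class I genes in that fit passed (H2-Q7), against 8.06% of all genes. The table holds no gene with a lower aged mean, so the direction of these counts is not independent of how it was filled. The 11 genes that were not tested, such as H2-Q10, H2-T18 and H2-M5, had a mean signal below 1.

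The arrangement of H2-K1 and H2-D1, with aged replicates 2 and 3 above and aged replicate 1 below all young samples, was also that of H2-Q4, H2-Q7, H2-T22, H2-T23 and H2-T10, or 5 of the 11. It was found in 21 of the 66 tested genes (31.8%), so it was not confined to class I genes. Aged replicates 2 and 3 lay above all young samples in 9 of the 11 (43.9% of all tested genes). Gm8909, a predicted class I gene, was listed at 3.45, 5.31 and 4.40 in the young and at 24.0, 9.63 and 10.3 in the aged samples. It was highest in aged replicate 1, where both members were lowest.

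**Figure D4:**
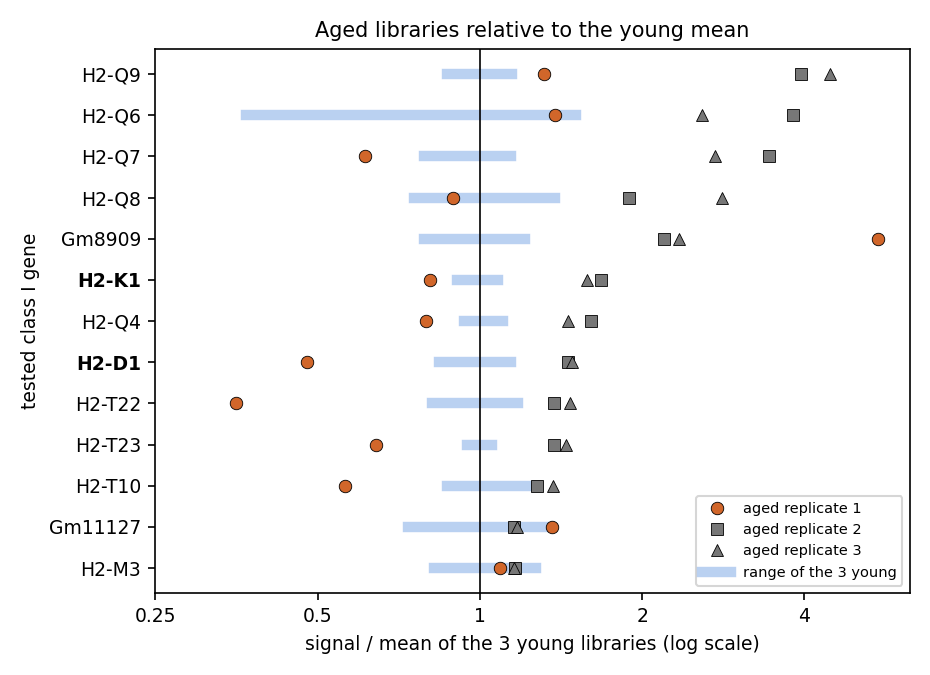
Signal of each tested class I gene in the 3 aged libraries divided by the mean of the 3 young libraries (horizontal axis, log scale), with the range of the young libraries as a blue bar. Genes (vertical axis) are ordered by the mean of aged replicates 2 and 3, and H2-K1 and H2-D1 are in bold. H2-K1 lies at 1.68 and 1.58 in aged replicates 2 and 3 and H2-D1 at 1.46 and 1.48, both lower than the H2-Q9 values of 3.94 and 4.46.

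The genes whose pattern over the 6 samples was most like each member were found by the root mean square difference of log2(signal + 1), each gene centred on its own mean. For H2-K1 the 3 nearest of 65 genes were H2-Q4 (difference 0.0600), Lin37 (0.130), which encodes a subunit of the DREAM complex, and H2-T23 (0.143), against a median of 0.479 over the 65. H2-Q4, a class I gene of the Q region, was listed at 58.1, 68.6 and 59.5 in the young and at 49.4, 99.6 and 90.5 in the aged samples. Each aged library of H2-Q4 thus stood at nearly the same multiple of the young mean as that of H2-K1, at 0.796, 1.60 and 1.46 for H2-Q4 and 0.809, 1.68 and 1.58 for H2-K1. Of the 50-base stretches of the H2-K1 transcript, 3.38% also occurred in H2-Q4 and 3.69% in H2-T23. The share with H2-D1, which was not among the 3 nearest, was 6.94%. These are shares of the H2-K1 transcript, and those of the H2-Q4 and H2-T23 transcripts were not computed. The part of reads that fit several genes in the likeness was not tested.

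For H2-D1 the 3 nearest were H2-T22 (0.128), Rela (0.174), which encodes a subunit of NF-kB, and H2-T23 (0.192), against a median of 0.630. H2-T22, a non-classical class I gene, was listed at 22.1, 32.0 and 27.4 in the young and at 9.59, 37.3 and 39.9 in the aged samples. Like H2-D1, it was low in aged replicate 1, at 0.353 times the young mean against 0.478 for H2-D1. H2-D1 was the fifteenth nearest gene to H2-K1 and H2-K1 the eighth nearest to H2-D1, at a difference of 0.273. Without aged replicate 1 each was the third nearest to the other, at 0.0973, after Ccnd3 and H2-Q4 for H2-K1 and after H2-T22 and Lin37 for H2-D1. These are descriptions over 6 or 5 libraries that share their library-wide deviations, and carry no test.

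**Figure D5:**
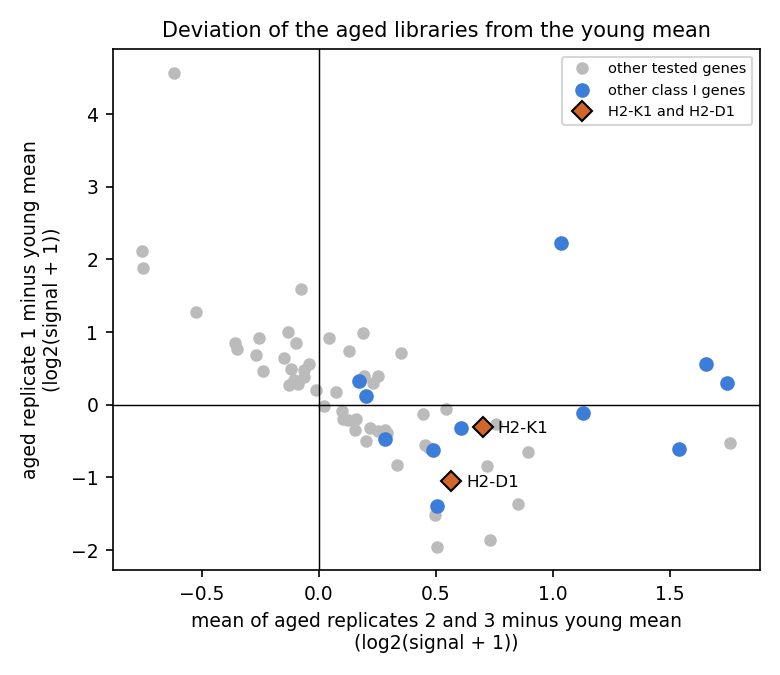
Aged replicate 1 minus the young mean (vertical axis) against the same difference for the mean of aged replicates 2 and 3 (horizontal axis), in log2(signal + 1), for the 66 tested genes, with class I genes in blue and H2-K1 and H2-D1 as orange diamonds. Both members are among the 32 genes in the lower right part of the plot, and the lower left is empty: the table holds only genes with a higher aged mean.

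Markers of other cells could be followed only in part. Of a list of 9 choroid plexus genes, the table holds Igfbp2, Trpv4 and Calml4. Their summed signal was 860, 414 and 436 in the young libraries 1, 2 and 3 and 222, 926 and 960 in the aged ones. The sum was lowest in aged replicate 1 and highest in aged replicates 2 and 3, as were both members, but among the young samples it was highest in replicate 1, where both members were lowest. Most of the sum was Igfbp2, and Calml4 did not have this order: its signal was 34.0 in aged replicate 1 against 28.9 in young replicate 3, and 65.7 in aged replicate 3 against 67.5 in young replicate 1. The part of such cells in the class I signal was not tested. Markers of neuroblasts, microglia, NK and T cells, endothelial cells, astrocytes, oligodendrocytes and mature neurons, and the lists for antigen processing and interferon response, had 0 genes in the table, so the neuroblast label was not checked and the partners of class I heavy chains were not analysed here.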

How the data were processed

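Expression of 88 genes of the KEGG cellular senescence pathway in 6 mouse samples (3 young, 3 aged) was read from the senescence table. For each gene and sample the authors deposited a value headed as expression, used here as a signal; the sources used here do not give its unit, aligner, counting tool or build, so depth is unknown. Per the file headers, the table also gives the authors' log2 ratio (aged over young), a p-value and a q-value. The cell cycle table holds no member and was not used. Per the labels' protocols, total RNA was purified on oligo(dT) beads and primed with random hexamers.

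Groups came from the sample titles. Genes whose mean signal reached 1 were fitted as log2(signal + 1) with limma 3.58.1 in R 4.3.3 (eBayes with trend), adjusted by Benjamini-Hochberg over all 66 tested genes at 5%, after tests on simulated data. Such changes understate those of genes with low values. The ratio of the members was tested by an exact permutation test. The samples' replicate numbers were not taken as pairs. Alternatives were medians set equal across libraries, 0.1 as the pseudocount, a minimum mean of 5 or none, eBayes without trend, array weights, a replicate block, GC and length trends removed, each library left out, and for the count a 10% threshold or an added fold of 1.5; equal medians without aged replicate 1 were added after seeing the data. GC content and length came from GENCODE M21, matched for 80 of 88 genes, and the authors' build was not assumed. Sequences were handled with Biopython 1.88 in Python 3.11.15. Named genes were the members, the other class I genes, the 3 genes nearest to each member and the choroid plexus genes in the table; Ccnd3 was named after its values were seen. The members and lists were chosen with earlier results of these data known.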

Additional observations from a re-analysis of the deposited data

How the results depend on the processing

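The log2 change of H2-K1 stayed above 0 under all 16 alternatives run, and that of H2-D1 under 12 of 16. These counts are a limited check of direction. With no filter, a minimum mean of 5, eBayes without trend or a replicate block, the estimates could not change and stayed at 0.37 and 0.03. No listed gene has a lower aged than young mean, so the sign is also not independent of how the genes were chosen. With array weights, whose estimation stopped before its convergence tolerance, H2-K1 passed at 0.63 (limma adjusted p = 0.0206) and 15 genes passed, while H2-D1 did not (0.45, adjusted p = 0.104). With 1 library left out, H2-K1 was lowest at 0.18 without aged replicate 2 and highest at 0.70 without aged replicate 1. H2-D1 was highest at 0.57 without aged replicate 1 and lowest at −0.25 without aged replicate 3, with −0.23 without aged replicate 2 and −0.092 without young replicate 1. The count of genes ran from 0 to 15. With equal library medians H2-D1 was at −0.18. Without aged replicate 1, 6 genes passed with GC and length trends removed and 9 with equal medians. The difference from young to aged of the log2 ratio of H2-D1 to H2-K1 ran from −0.47 to −0.059 over its 10 alternatives. The smallest exact permutation p among them was 0.1. With the replicate number as a block, the changes were 0.37 (SE 0.454) and 0.03 (SE 0.577), the ratio difference −0.34 (lower in 3 of 3 pairs, exact permutation p = 0.25, the smallest that 3 pairs allow) and the count 0. Same-numbered libraries of the groups correlated in their deviations at 0.271, 0.0908 and 0.408 for numbers 1 to 3. Each sample of replicates 1 and 3 and young replicate 2 correlated best with its own number. Aged replicate 2 correlated best with young replicate 3. The deviations were taken from the group mean, so those of a group sum to 0 for each gene. The correlations are therefore not independent of each other, and cannot decide whether the samples were paired. The depth is unknown, so counting error could not be set beside these values.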
